A study of Homo sapiens with 6 samples.

Results

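The transcripts described here are 10 genes that respond to the ERK kinases and mostly feed back on them: EGR1, DUSP1, DUSP4, DUSP5, DUSP6, SPRY2, SPRY4, PHLDA1, IER2 and IER3. They were taken by gene symbol from the deposited count table, where each symbol had a single line, out of 60835 symbols in all. The rule uses no measured value, but the genes were proposed with earlier results of these data known. Polyadenylated RNA came from SMAD4-knockout PANC-1, an established human cell line derived from a pancreatic carcinoma of epithelioid type. One group of 3 libraries was from knockout cells transfected with SMAD4 carrying the R272K change, an arginine replaced by a lysine. The other group of 3 was from knockout cells transfected with wild-type (WT) SMAD4. All 6 libraries were collected on day 3. Both groups thus carry the knockout and an introduced SMAD4, and no knockout library without SMAD4 was analysed here. The labels do not state the promoter of the construct, the number of clones behind the line, or whether the replicates are separate cultures. The p-values below therefore reflect the spread of these samples alone, and that spread may be technical.

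ERK is the last kinase of the RAS, RAF and MEK cascade, which carries growth factor signals to the nucleus. Active ERK phosphorylates ternary complex factors at serum response elements and so switches on immediate early genes such as EGR1 and IER2 within minutes. It also induces its own brakes: DUSP phosphatases that remove phosphate from MAP kinases, and Sprouty proteins that dampen signalling from receptors to RAS. Steady levels of these transcripts are widely read as a measure of ERK output, although stress kinases, SRF and mRNA decay act on several of them too. The comparison asks whether they differ between cells with R272K and cells with WT SMAD4, which TGF-β and BMP signalling use as the shared partner of other SMAD proteins.

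2 promoters are printed because they belong to a called member, EGR1, and to the member with the estimate nearest 0, DUSP1. RefSeq promoter windows (250 bases before to 50 after the start site, GRCh38.p14) were at hand for 7 of the 10 members. DUSP4, DUSP5 and IER3 had none, so the other called member, DUSP5, was not searched. The EGR1 window, chr5:138465229-138465528 on the plus strand, and the DUSP1 window, chr5:172771146-172771445 on the minus strand, are printed 5′ to 3′ in the direction of the gene. Capitals mark CArG boxes, the core of the serum response element, in EGR1, and a cAMP response element, TGACGTCA, in DUSP1.
EGR1: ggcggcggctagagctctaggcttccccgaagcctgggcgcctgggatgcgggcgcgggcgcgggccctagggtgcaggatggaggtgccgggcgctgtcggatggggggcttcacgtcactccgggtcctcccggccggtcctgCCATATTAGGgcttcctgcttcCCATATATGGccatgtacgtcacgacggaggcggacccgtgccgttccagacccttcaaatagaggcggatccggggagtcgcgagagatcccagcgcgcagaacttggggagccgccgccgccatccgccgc
DUSP1: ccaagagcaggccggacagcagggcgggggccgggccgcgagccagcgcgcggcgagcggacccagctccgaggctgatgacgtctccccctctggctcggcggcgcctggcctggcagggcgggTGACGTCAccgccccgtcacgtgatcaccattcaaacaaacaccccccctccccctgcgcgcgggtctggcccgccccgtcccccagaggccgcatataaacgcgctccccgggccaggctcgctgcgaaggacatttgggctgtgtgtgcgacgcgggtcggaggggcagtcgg
The EGR1 window held 2 CArG boxes (CCATATTAGG and CCATATATGG), which began 105 and 83 bases before the start site. None of the other 6 members with a window had a match there. A CArG box was present in 1.29% of the 35116 windows in the RefSeq table, and TGACGTCA in 1.85%. The binding sequence of EGR proteins, GCGNGGGCG, is present in 9.43% of windows. It occurred in EGR1 itself once, in the most upstream SPRY2 window 2 times and in SPRY4 once. The SPRY4 window, chr5:142324198-142324497, lies inside the gene, whose 5′ end is at 142326455. The bases before that end were not searched. IER2 had 1 match to the ETS sequence CCGGAAG, 27 bases before its start site, which 10.3% of windows hold. Only this 7-base form was searched, so ETS sites with other letters, in EGR1 or elsewhere, would be missed. No member's window held the AP-1 sequence TGANTCA (7.71% of windows) or the SMAD palindrome GTCTAGAC (0.202% of windows). All motifs were searched on both strands, and no match overlapped another. A match says only that these letters are present.

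**Figure D1:**
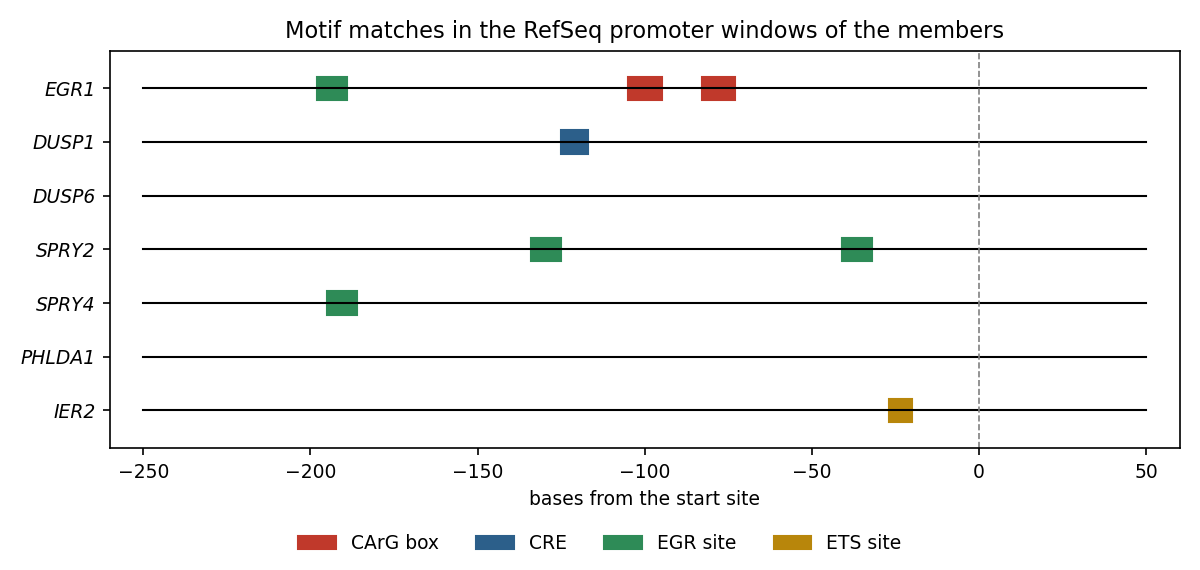
Motif matches in the RefSeq promoter windows of the 7 members that have one, drawn as coloured blocks against distance in bases from the start site (dashed line); for SPRY2 the most upstream of its windows is drawn. EGR1 has 2 CArG boxes, DUSP1 a cAMP response element, and SPRY2, SPRY4 and EGR1 carry EGR sequences.

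Depth was even, at 15148435 to 15406781 counts in the R272K libraries and 14776148 to 17706201 in the WT libraries. CPM are counts scaled to a common library total, here on TMM-adjusted library sizes. SMAD4 itself fell with R272K, at 43.3 ± 2.56 CPM against 88.7 ± 5.13 CPM with WT (SD, n = 3 each). Its log2 fold change was -1.03 (SE 0.075, edgeR adjusted p = 6.28e-06). The amount of SMAD4 transcript and the substitution therefore cannot be told apart in any difference below. WT replicate 1 stood apart on the first principal component, at 31.3 against -15.6 to 9.56 for the other libraries, and longer genes read lower in it relative to the rest of its group (rho -0.41, Spearman, over genes that are not independent of each other). Of the line's own markers, KRT8 and KRT18 were abundant, at 2800 and 1010 CPM with R272K and 2240 and 938 CPM with WT. KRT19 stood at 132 CPM with R272K and 142 CPM with WT, whereas EPCAM and KRT7 averaged under 5 CPM in both groups. KRT8 (0.32, edgeR adjusted p = 0.0661) and EPCAM (0.39, adjusted p = 0.338) were higher in every R272K library without being called. KRT18 (0.11, adjusted p = 0.583), KRT19 (-0.10, adjusted p = 0.633) and KRT7 (-0.13, adjusted p = 0.866) overlapped between the groups. Of the 4 mesenchymal markers FN1, which encodes fibronectin, rose, at 91.1 ± 4.24 CPM with R272K and 60.9 ± 7.95 CPM with WT (SD, n = 3 each; log2 fold change 0.58, adjusted p = 0.0054), and VIM, CDH2 and ZEB1 were not called. The part of these markers in the results below was not tested. 14 markers of leukocytes, endothelium, acinar cells and islets together had 12 to 24 counts per R272K library and 9 to 21 per WT library, and SST was at 0 in all of them.

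2 of the 10 genes fell with R272K SMAD4, EGR1 and DUSP5, and 8 were not called. None was called higher by edgeR's quasi-likelihood test, DESeq2 or limma-voom, and at an unadjusted p under 0.05 there were 5 lower and 0 higher, against 14.3% of all tested genes in either direction. A call is an adjusted p below 0.05 over the 15911 genes tested, of which 0.528% were called lower, 0.685% higher and 1.21% in either direction. The estimates of 9 members lay below 0, against 50.3% of all tested genes, although DUSP1 flips sign with upper quartile scaling, and DUSP1 and IER3 once the gene length trend is removed. The members' median log2 fold change was -0.23, against 0.00 over all genes. For 6 members every R272K library lay below every WT library in CPM (5 in TPM, where SPRY4 overlapped), a pattern shown by 10.4% of tested genes in CPM, and for 0 members every R272K library lay above, which 10.9% of genes show. In bulk RNA, fewer cells with a transcript and less transcript per cell cannot be told apart.

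**Figure D2:**
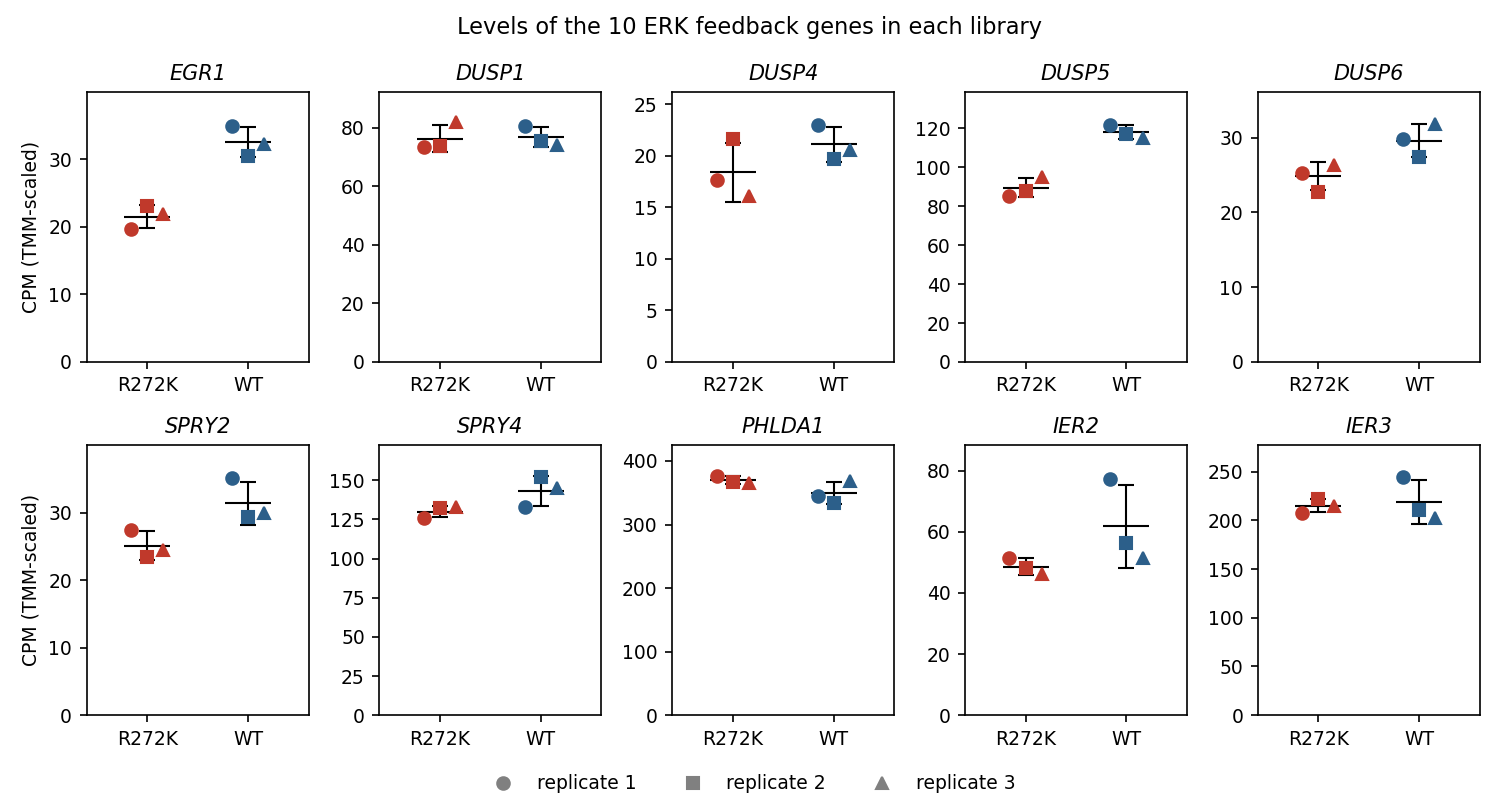
CPM on TMM-scaled library sizes for each member in every library, with R272K left of WT; symbols give the replicate, and the bar and whiskers the mean and SD of 3 libraries. EGR1 and DUSP5 have the widest gap between groups relative to their spread, whereas DUSP1 and IER3 overlap, and IER2 has 1 high WT library.

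EGR1 encodes a zinc finger transcription factor that is induced within minutes of ERK activation (ENSG00000120738, chromosome 5, 138465479 to 138469303, plus strand, GRCh38). It stood at 19.7, 23.0 and 21.9 CPM in R272K replicates 1 to 3, and at 34.9, 30.5 and 32.3 CPM in WT replicates 1 to 3. The highest R272K library thus lay well under the lowest WT library. The means were 21.5 ± 1.66 CPM with R272K and 32.6 ± 2.22 CPM with WT (SD, n = 3 each), so R272K cells had 0.66 times the WT level. The log2 fold change was -0.60 (SE 0.09, 95% interval -0.79 to -0.41, edgeR adjusted p = 0.00469), and EGR1 ranked 50 by p-value among all genes tested. The fold change stayed between -0.65 and -0.54 in all 18 alternative settings, and 15 of them called it. The adjusted p was 0.0555 without R272K replicate 1 and 0.0506 without R272K replicate 3, and 0.142 on log2(TPM + 1) with no filter on low values; without WT replicate 1 it was 6.82e-05.

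The close relatives of EGR1 were scarce. EGR3 stood at 2.69 CPM with R272K and 2.77 CPM with WT (log2 fold change -0.04, adjusted p = 0.96). EGR4 had 4, 7 and 7 counts in R272K libraries against 16, 12 and 10 in WT libraries (-1.0, adjusted p = 0.287), and EGR2, with 2 to 5 counts per R272K library and 3 to 7 per WT library, did not pass the expression filter. These relatives and FOS were picked after their values were seen. NAB2, a co-repressor of EGR1 that EGR1 itself induces, had 24.8 CPM with R272K and 28.2 CPM with WT (-0.19, adjusted p = 0.339), and its relative NAB1 81.0 and 72.4 CPM (0.16, adjusted p = 0.348). FOS, another classic immediate early gene, was near the limit of detection, with 26, 14 and 33 counts in R272K libraries against 36, 25 and 26 in WT libraries (-0.19, adjusted p = 0.823).

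DUSP5 encodes a nuclear phosphatase that acts on ERK and anchors it in the nucleus (ENSG00000138166, chromosome 10, 110497907 to 110511533, plus strand). Its level was 85.4, 88.1 and 95.2 CPM in the R272K replicates, against 122, 117 and 115 CPM in the WT replicates. The groups did not overlap, and the spread within each was small. Means were 89.6 ± 5.08 CPM with R272K and 118 ± 3.52 CPM with WT (SD, n = 3 each), that is 0.76 times the WT level. The log2 fold change was -0.40 (SE 0.067, 95% interval -0.54 to -0.25, edgeR adjusted p = 0.0102). In the alternative settings it ranged from -0.44 to -0.36 and was called in 14 of 18. Its adjusted p was 0.124 without R272K replicate 1, 0.113 without R272K replicate 2, 0.0549 without WT replicate 2 and 0.195 on log2(TPM + 1) with no filter. Across the 6 libraries the log2 CPM of DUSP5 and EGR1 had a Pearson correlation of 0.97, a value to which the difference between groups contributes.

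DUSP6, the cytoplasmic phosphatase specific for ERK (ENSG00000139318, chromosome 12, 89347235 to 89352501, minus strand), had 25.3, 22.8 and 26.4 CPM with R272K against 29.8, 27.4 and 31.8 CPM with WT. The groups did not overlap, but the estimate of -0.25 (95% interval -0.45 to -0.06) was not called (adjusted p = 0.219). DUSP4, a nuclear phosphatase for ERK, JNK and p38 (ENSG00000120875, chromosome 8, 29333064 to 29350684, minus strand), was the least abundant of these 4. It had 17.6, 21.6 and 16.1 CPM with R272K and 23.0, 19.7 and 20.6 CPM with WT, and the groups overlapped (-0.20, 95% interval -0.45 to 0.05, adjusted p = 0.471).

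DUSP1, which prefers p38 and JNK over ERK and is induced by stress as well as growth factors, overlapped between the groups (ENSG00000120129, chromosome 5, 172768096 to 172771195, minus strand). It had 73.3, 73.8 and 81.8 CPM in the R272K libraries and 80.6, 75.6 and 74.2 CPM in the WT libraries. The log2 fold change was -0.01 with a 95% interval of -0.16 to 0.14 (adjusted p = 0.966). That interval does not reach the estimates of EGR1 or DUSP5.

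Ratios of counts within a library do not depend on how libraries are scaled. The DUSP5 to DUSP1 ratio was 1.16, 1.19 and 1.16 in the R272K libraries, against 1.51, 1.55 and 1.55 in the WT libraries, a difference of -0.39 on the log2 scale. The DUSP6 to DUSP1 ratio was likewise lower in every R272K library, at 0.346, 0.309 and 0.323 against 0.369, 0.362 and 0.428 in WT. With the gene of lower estimate, IER2, as the denominator, the IER3 to IER2 ratio was higher in every R272K library. Its values were 4.04, 4.61 and 4.67 with R272K against 3.17, 3.74 and 3.92 with WT. These were the 3 of 8 pairs within the DUSP, Sprouty and IER groups whose groups did not overlap. Each had p = 0.1 in the two-sided exact permutation test on log2 ratios, the smallest that 3 against 3 libraries allow, and an adjusted p of 0.267 over the 8 pairs. The ratios of DUSP5 to DUSP4, DUSP6 to DUSP4, DUSP6 to DUSP5, DUSP4 to DUSP1 and SPRY4 to SPRY2 overlapped. These pairs were chosen after the values were seen.

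**Figure D3:**
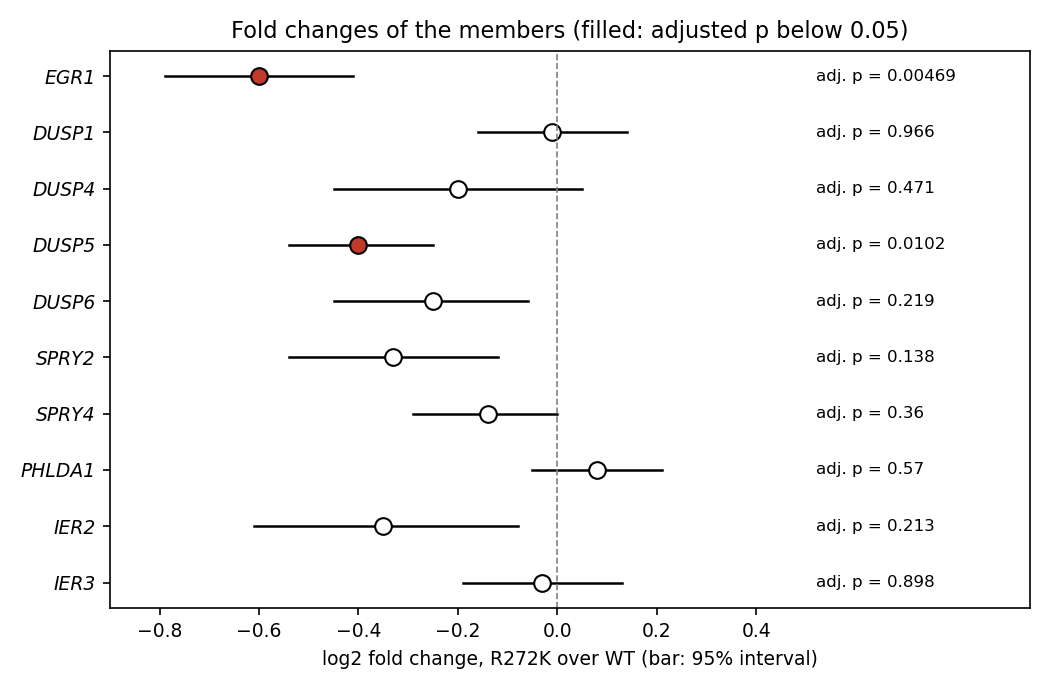
Log2 fold change of R272K over WT for each member with its 95% interval from edgeR's quasi-likelihood fit; filled points have an adjusted p below 0.05. EGR1 (-0.60) and DUSP5 (-0.40) are filled. The intervals of DUSP1, DUSP4, PHLDA1 and IER3 span 0, and that of SPRY4 (-0.29 to 0.00) reaches it.

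The Sprouty genes, whose proteins inhibit signalling between receptor tyrosine kinases and RAS, had estimates below 0 and were not called. SPRY2 (ENSG00000136158, chromosome 13, 80335976 to 80341126, minus strand) had 27.4, 23.4 and 24.4 CPM with R272K and 35.1, 29.3 and 29.9 CPM with WT. The R272K libraries all lay under the WT libraries, with WT replicate 1 the highest (-0.33, SE 0.097, adjusted p = 0.138). The adjusted p was 0.046 with no filter on low counts, and 0.0488 with each library's gene length trend removed. SPRY4 (ENSG00000187678, chromosome 5, 142310427 to 142326455, minus strand) had 126, 132 and 133 CPM with R272K and 133, 152 and 145 CPM with WT. Only WT replicate 1 came close to the R272K libraries (-0.14, 95% interval -0.29 to 0.00, adjusted p = 0.36). Without that library SPRY4 was called lower (-0.19, adjusted p = 0.0107), in a setting that called 875 of 16334 genes, against 193 of 15911 with all libraries. The other relatives, SPRY1, SPRY3, SPRED1, SPRED2 and SPRED3, gave 0 calls by edgeR, DESeq2 or limma-voom and 0 at an unadjusted p under 0.05, and all 5 estimates lay above 0 (median 0.07). Of these, the smallest p-values were those of SPRY3 (0.29, adjusted p = 0.599), SPRY1 (0.08, adjusted p = 0.726) and SPRED1 (0.07, adjusted p = 0.741).

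IER2 encodes a nuclear protein of the immediate early class (ENSG00000160888, chromosome 19, 13150411 to 13154911, plus strand). Its levels were 51.6, 48.1 and 46.1 CPM with R272K and 77.3, 56.4 and 51.6 CPM with WT. R272K replicate 1 and WT replicate 3 were nearly equal, and WT replicate 1 was far above the rest. The estimate was -0.35 (95% interval -0.61 to -0.08, adjusted p = 0.213), and -0.15 without WT replicate 1 (adjusted p = 0.214). It was called without WT replicate 3 (-0.47, adjusted p = 0.0452) and with no filter on low counts (-0.35, adjusted p = 0.00388), so the size of the IER2 difference rests on WT replicate 1.

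IER3, a stress and growth factor response gene whose product prolongs ERK signalling and affects cell survival (ENSG00000137331, chromosome 6, 30743199 to 30744548, minus strand), overlapped between groups. It had 208, 222 and 215 CPM with R272K and 245, 211 and 202 CPM with WT (-0.03, 95% interval -0.19 to 0.13, adjusted p = 0.898). PHLDA1, a pleckstrin homology protein gene used as a readout of ERK output (ENSG00000139289, chromosome 12, 76025447 to 76031776, minus strand), was the only member with an estimate above 0. Its 377, 367 and 366 CPM with R272K overlapped with 345, 334 and 368 CPM with WT (0.08, 95% interval -0.05 to 0.21, adjusted p = 0.57).

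**Figure D4:**
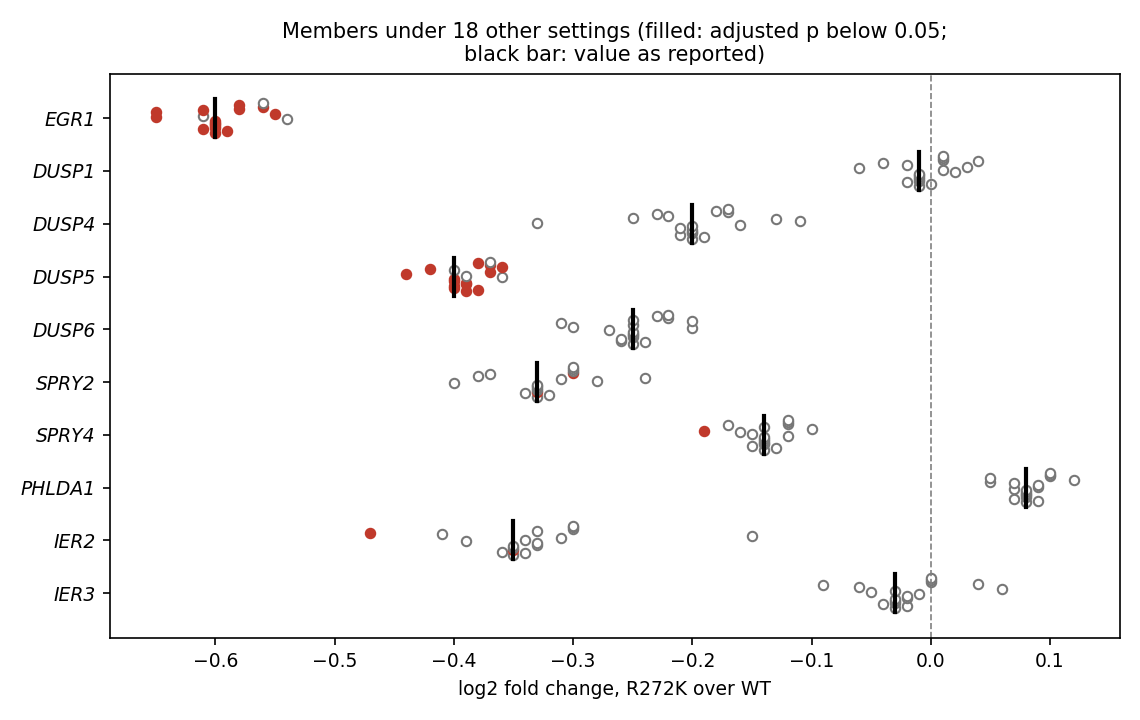
Log2 fold change of each member under the 18 alternative settings (circles; filled where the adjusted p is below 0.05) and as reported (black bar); 3 of the settings are on the log2(TPM + pseudocount) scale. EGR1 keeps to -0.65 to -0.54 and DUSP5 to -0.44 to -0.36, while IER2 spreads from -0.47 to -0.15 and DUSP1 and IER3 sit on both sides of 0.

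Levels between genes were compared in TPM, which divides counts by gene length. IER3 was the most abundant member, at 502 ± 15.5 TPM with R272K and 503 ± 24.8 TPM with WT (SD, n = 3 each), followed by PHLDA1 at 197 ± 3.29 and 184 ± 15.8 TPM. DUSP1 and DUSP5 came next, and they traded places between the groups. With R272K DUSP1 had 114, 114 and 130 TPM and DUSP5 108, 111 and 123 TPM, which overlap. With WT DUSP5 had 144, 149 and 150 TPM, all above the 117, 119 and 119 TPM of DUSP1. SPRY4 followed at 76.6 ± 2.63 TPM with R272K and 83.5 ± 9.24 TPM with WT, and IER2 at 52.2 ± 2.67 and 65.0 ± 10.7 TPM. SPRY2 had 29.2 ± 2.47 TPM with R272K and 36 ± 1.9 TPM with WT. EGR1, at 21.6 ± 1.67 TPM, could not be told from DUSP6, at 21.6 ± 1.83 TPM, in R272K cells, whereas in WT cells EGR1 had 32.2 ± 1.32 TPM and DUSP6 25.4 ± 2.54 TPM. DUSP4 was lowest at 10.4 ± 1.52 TPM with R272K and 11.8 ± 0.502 TPM with WT.

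The members also differ in the AU-rich pentamer ATTTA in their 3′ untranslated regions, a feature of many short-lived immediate early transcripts. It was counted in 1 GENCODE release 29 transcript per gene, for 12475 of the tested genes, whose median was 2. EGR1 had 1 copy, and DUSP5 and IER2 had 0. PHLDA1 had 14, SPRY4 8, IER3 and DUSP4 6 each, DUSP1 4, SPRY2 2 and DUSP6 1. Per kilobase the density was 8.14 in IER3 and 5.95 in DUSP1, a density reached by 2.48% and 6.35% of the genes counted. Decay factors for such transcripts (6 tested, among them ZFP36, which encodes tristetraprolin) gave 0 calls by edgeR, DESeq2 or limma-voom and 0 at an unadjusted p under 0.05. The smallest p-values were those of ZFP36L2 (-0.17, adjusted p = 0.451), ZFP36 (-0.09, adjusted p = 0.586) and ZFP36L1 (0.05, adjusted p = 0.786). Without WT replicate 1, 1 decay factor was called lower.

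Most other genes of the pathway were not called. Among 108 distinct tested genes outside the members, 3 were called lower, 0 higher and 105 not called. That is 2.78% in all, against 1.21% of all tested genes. Some genes stand on more than 1 list and are counted in each list below. There were 19 at an unadjusted p under 0.05, a share near the 14.3% of all tested genes. At the adjusted threshold DESeq2 called 5 lower and 0 higher, limma-voom 3 lower and 0 higher. Without WT replicate 1, 7 were lower and 4 higher, in a setting that called 875 of 16334 genes against 193 with all libraries. Of 24 tested immediate early genes outside the members, 2 fell and 22 were not called (median log2 fold change -0.07). Over all tested genes 0.528% were called lower. At an unadjusted p under 0.05 by edgeR there were 6 lower and 0 higher, against 14.3% of all tested genes in either direction. Estimates lay below 0 for 19 of the 24, against 50.3% of all tested genes. At the adjusted threshold, leaving out WT replicate 1 gave 4 lower, and leaving out WT replicate 2 or any one R272K library gave 1. ATF3, a stress-induced transcription factor gene, had 16.1, 17.4 and 16.4 CPM with R272K against 36.5, 33.9 and 31.4 CPM with WT (-1.03, SE 0.09, adjusted p = 3.2e-05), and it was called in all 18 alternative settings. KLF10, a zinc finger repressor gene first known as a TGF-β early response gene, had 102, 103 and 104 CPM with R272K against 122, 125 and 129 CPM with WT (-0.28, adjusted p = 0.0389). KLF10 was called in 9 of the 18 settings. It was lost when any library other than WT replicate 1 was left out, with adjusted p of 0.252, 0.225 and 0.203 without R272K replicates 1, 2 and 3, and 0.151 and 0.0632 without WT replicates 2 and 3.

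Late readouts of ERK output gave 1 lower gene of 20 tested and 19 not called, against 0.528% of all tested genes called lower. Their median was 0.00 on the log2 scale. VGF, a secreted neuropeptide precursor gene induced by growth factors, had 37.2, 38.1 and 37.1 CPM with R272K against 60, 57.5 and 49.5 CPM with WT (-0.57, SE 0.082, adjusted p = 0.0034). Its adjusted p was 0.0525 without R272K replicate 3 and 0.0632 on log2(TPM + 1) with no filter, and it was called in the other 16 of 18 settings. DESeq2, scaling by library size only, no filter and leaving out WT replicate 3 each called 3 readouts lower; without WT replicate 1 or with the length trend removed, 3 were lower and 1 higher. With R272K replicate 3 left out, edgeR called 0, with 4 lower and 1 higher at an unadjusted p under 0.05. With all libraries, edgeR gave 4 lower and 1 higher at an unadjusted p under 0.05, against 14.3% of all tested genes in either direction. The lower ones were VGF, FOSL1, SPHK1 (-0.42, adjusted p = 0.0554) and PLAUR (-0.33, adjusted p = 0.159). FOSL1 also stands on the immediate early list and is counted among its lower genes too. The higher one was ERRFI1 (0.20, adjusted p = 0.115). SPHK1, PLAUR, ERRFI1 and the 4 readouts that follow were picked after their values were seen. CCND1, the cyclin D1 gene, stood at 649 CPM with R272K and 673 CPM with WT (-0.05, adjusted p = 0.757), EPHA2 at 498 and 518 CPM (-0.06, adjusted p = 0.737), and the ETS factor gene ETV5 at 104 and 95.1 CPM (0.13, adjusted p = 0.405). The AP-1 subunit gene FOSL1 had 201 ± 10.1 CPM with R272K and 243 ± 10.1 CPM with WT (SD, n = 3 each) without passing the threshold (-0.27, adjusted p = 0.0599).

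**Figure D5:**
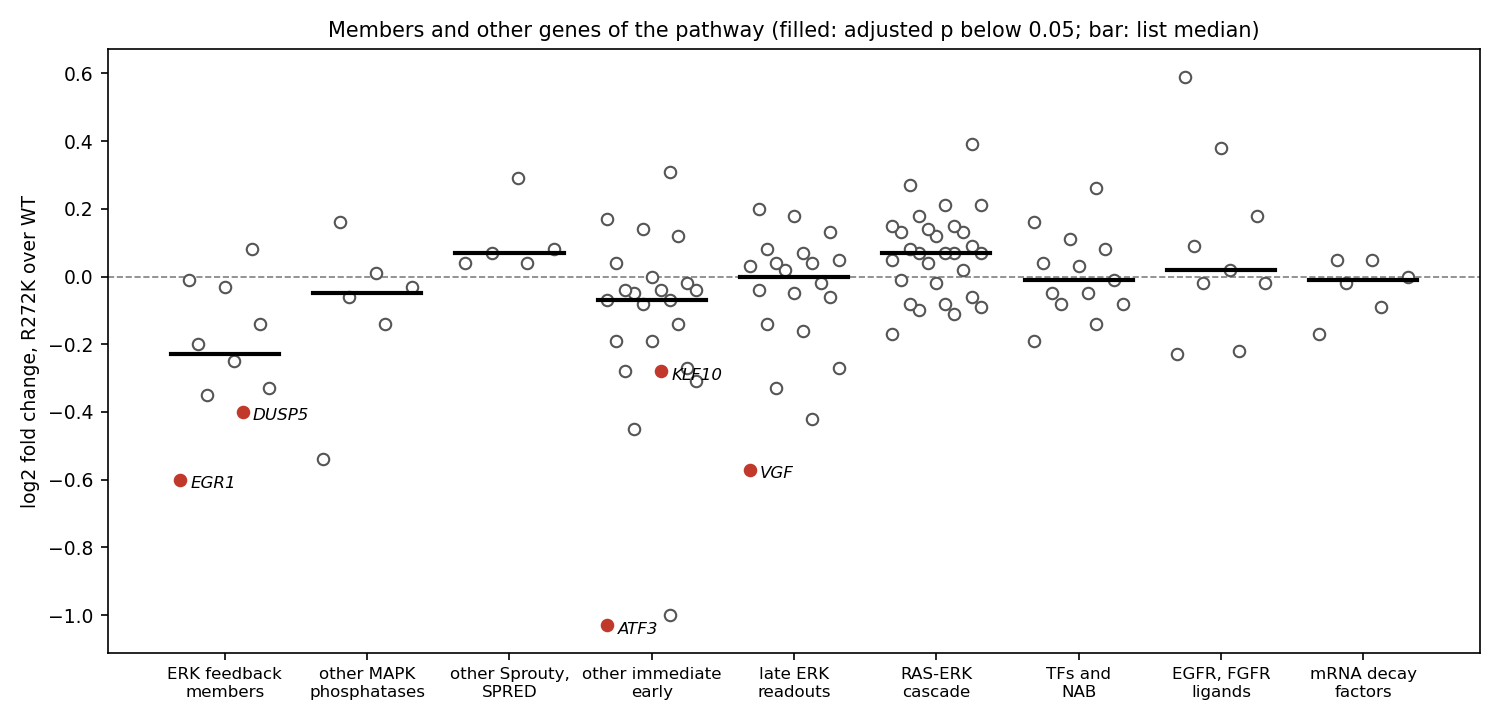
Log2 fold change of R272K over WT for every tested gene of the members and of 8 other lists of the pathway (circles; filled and named where the adjusted p is below 0.05), with the median of each list as a bar. Filled genes all lie below 0, and the members have the lowest list median, at -0.23.

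The next list runs from the receptors EGFR and MET through RAS, RAF and MEK to ERK and the kinases that ERK activates. It also holds direct regulators of the cascade, such as NF1, RASA1 and PEBP1. Of its 29 tested genes, 0 were called by edgeR, DESeq2 or limma-voom. An unadjusted p under 0.05 was found for 4, all higher, a share near the 14.3% of all tested genes. They included MKNK2, an ERK-activated kinase gene, at 139 CPM with R272K and 115 CPM with WT (0.27, adjusted p = 0.115), RPS6KA3, which encodes the ERK-activated kinase RSK2, at 136 and 118 CPM (0.21, adjusted p = 0.164), and the adaptor gene GAB1 at 9.78 and 7.47 CPM (0.39, adjusted p = 0.18). The remaining gene was RASA1, one of the regulators, at 62.9 and 54.4 CPM (0.21, adjusted p = 0.319). Without WT replicate 1, 2 of the 29 were called higher, and 1 was with no filter on low counts or with the length trend removed. Of 6 other MAP kinase phosphatases 0 were called by edgeR, DESeq2 or limma-voom, and 1 had an unadjusted p under 0.05, DUSP2 (-0.54, adjusted p = 0.282); DUSP8 (-0.14, adjusted p = 0.478) and DUSP9 (0.16, adjusted p = 0.647) had the next smallest p-values. Among 13 ERK-responsive transcription factors and EGR co-repressors 0 were called by the same 3 tools and 3 had an unadjusted p under 0.05, MRTFB (0.26, adjusted p = 0.283) and the 2 NAB genes. Of 9 tested ligands of EGFR and FGF receptors 0 were called by those tools, and 1 had an unadjusted p under 0.05, FGF2 (-0.22, adjusted p = 0.276). BTC (0.59, adjusted p = 0.401) and FGF5 (0.38, adjusted p = 0.406) followed, and EREG, the most abundant ligand in TPM and named after its values were seen, stood at 738 CPM with R272K and 729 CPM with WT (0.02, adjusted p = 0.928). Leaving out WT replicate 1 gave 1 ligand called higher.

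The genes whose log2 CPM followed EGR1 most closely over the 6 libraries, among 11126 with a mean of at least 5 CPM, were SERP1 (Pearson r 0.998), H4C8 (0.994), H2BC11 (0.994), IFNL3 (0.993) and SLC46A3 (0.991). For DUSP5 they were TBL2 (0.994), SPNS2 (0.993), PLCD3 (0.993), SART3 (0.992) and ISG15 (0.991). The 6 points share 2 groups, so a gene that differs between the groups scores high, and the lists are a description with no test. H4C8 (-1.05, adjusted p = 0.0034), IFNL3 (-1.91, adjusted p = 2.75e-05) and ISG15 (-1.26, adjusted p = 3.51e-05) were themselves called lower with R272K, and the other 7 were not called. IFNL3 has near-identical copies in the genome, and how the authors' counting treated reads shared between copies is unknown, so its value is uncertain.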

How the data were processed

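RNA-seq libraries of 3 R272K and 3 WT samples were analysed. Per the submitters' processing notes, reads were handled with HTSeq 0.10.0, HISAT2 2.1.0, fastp 0.23.0 and SAMtools on build GRCh38. For strand use, settings and annotation release, sources used here give nothing. The authors deposited raw counts per symbol (62710 lines, 60835 distinct symbols, each used once) and TPM, recorded as a score because repeated lines make its columns sum to 1296446 to 1472074; over distinct symbols it sums to 1000000. It was made from the same counts, to a largest relative deviation of 1.0e-14.

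Genes passing edgeR's filter (minimum count 10, minimum total 15) were TMM-scaled and tested, two-sided, with the robust quasi-likelihood test, group as the only term and Benjamini-Hochberg adjustment over all 15911. SE is the fold change over the square root of F. Because counting may not have used strand, reads of antisense partners are not separable: SPRY4-AS1 had 41 to 44 counts in R272K and 38 to 60 in WT libraries, other partners of the members at most 20.

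Members and lists were chosen with earlier results of these data known. Named genes are all members, SMAD4, every called gene of each pathway list (or else the 3 with smallest p), and the 5 genes most like each called member. Markers of cell types were named to check the line, KRT7, EPCAM, KRT8, KRT18, KRT19 and FN1 after their values were seen. Others are said to be chosen later. The test was tested on simulated data. Every replicate pair differed by more than sampling noise (1.8 or more for chi-square over its degrees of freedom). WT replicate 1 gave 10.1 against WT replicate 2 and 13.68 against WT replicate 3, and the other pairs 1.8 to 2.74. Alternatives were leaving out each library, the replicate number as a block, DESeq2, limma-voom, scaling by RLE, by upper quartile or by library size alone, other filters, removal of each library's gene length trend, and limma fits of log2(TPM + 0.1) and log2(TPM + 1). Versions were edgeR 4.0.16, DESeq2 1.42.0 and limma 3.58.1 under R 4.3.3, and scipy 1.17.1, pandas 2.3.3, numpy 2.4.6 and matplotlib 3.10.9 under Python 3.11.15.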

Additional observations from a re-analysis of the deposited data

How the results depend on the processing

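The median log2 fold change of the members stayed between -0.28 and -0.17 in all 18 alternatives. Members called numbered 0 to 3 with 1 library left out (0 without R272K replicate 1), 4 with no filter on low counts and 0 on log2(TPM + 1) with no filter. Pathway genes outside the members called numbered 1 to 11 with 1 library left out (11 without WT replicate 1). They were 5 with library size only or DESeq2, 8 with no filter or with the length trend removed, and 1 on log2(TPM + 1) with no filter. Calls over all genes, 193 as reported, ranged from 55 to 875 with 1 library left out. They were 474 with no filter, 619 with the length trend removed, 104 on log2(TPM + 1), 101 on log2(TPM + 0.1) and 37 on log2(TPM + 1) with no filter. The cause was not tested; fits without a library also hold fewer samples.

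DUSP1, not called in any setting, changed sign with upper quartile scaling (0.00 on rounding), with the length trend removed (0.04), on each TPM scale (0.01), and when R272K replicate 1 (0.02), R272K replicate 2 (0.01) or WT replicate 1 (0.03) was left out. IER3, also never called, ranged from -0.09 to 0.06 with 1 library left out and changed sign without WT replicate 1 (0.06) and with the length trend removed (0.04). With the replicate number as a block, 2 members were called, and 262 genes in all; EGR1 (-0.60, adjusted p = 0.00121) and DUSP5 (-0.40, adjusted p = 0.00683) were called, and KLF10 was not (adjusted p = 0.0559). Nothing in the labels says that the numbers pair the libraries. Deviations of same-numbered libraries from their group means correlated at -0.06 to -0.01, which cannot decide it with 3 libraries per group. At these depths EGR2, EGR4, FOS and DUSP2 had too few counts for a firm estimate.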
